A study of Mus musculus with 20 samples.

Results

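Dux, the Duxbl copies, the Cphx copies and Crxos are homeobox genes of the mouse egg and early embryo. They were chosen by symbol from the authors' comparison tables, and 7 of the 8 symbols asked for had a row among the 24411 gene symbols listed: Dux, Duxbl1, Duxbl2, Duxbl3, Cphx1, Cphx2 and Crxos. Cphx3 was not analysed here. Smart-seq2, a full-length cDNA method primed with oligo-dT, was used to read poly(A) RNA in pools of 10 to 15 oocytes or embryos. The B6CASTF1 hybrids gave 2-cell embryos in G2 (2 samples), G2 zygotes (3 samples) and G1 zygotes (3 samples). The inbred C57BL/6J strain gave 2-cell embryos in G2, G2 zygotes, G1 zygotes and MII eggs, which wait at the second meiotic metaphase for fertilization, with 3 samples each. All samples were untreated and wild type, came from oocytes matured in culture and, after fertilization in vitro, were grown in KSOM medium under 5% oxygen. The sources used here do not give the direction of the hybrid cross, nor do they state that the pools of a group had different mothers, so every p-value reflects spread among pools that may be technical.

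Dux is a transcription factor with a pair of homeodomains and the mouse counterpart of human DUX4. It is known to switch on genes of the 2-cell embryo, among them the Zscan4 cluster and transcripts of the MERVL retrovirus, and its own burst in the zygote is brief. Duxbl is a related double homeobox gene that in mouse cells is itself turned on by Dux and has been described as closing the Dux program. Cphx, the cytoplasmic polyadenylated homeobox gene, is known from oocytes and early embryos, and Crxos, which lies beside Crx, encodes a homeodomain protein of the group that includes the Obox genes.

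Duxbl and Cphx lie in 1 tandemly repeated stretch of chromosome 14 (GRCm38, GENCODE M21, all on the plus strand). In order these were Cphx1 (25938304 to 25956356), Duxbl1 (25978577 to 25990088), Cphx2 (26081516 to 26096127), Duxbl2 (26118349 to 26129763) and Duxbl3 (26257962 to 26269436), within 331 kb. The model of Cphx3 (26082297 to 26235744) overlaps those of Cphx2 and Duxbl2. Crxos lies on chromosome 7 (15882617 to 15904020, plus strand), 2648 bases from the end of Crx (15865947 to 15879968, minus strand), and the annotated genes do not overlap. The symbol Dux is not in this annotation, so no position is given for it.

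The copies are nearly the same in sequence. The coding sequence of 1050 bases in the longest transcript was identical in Duxbl1, Duxbl2 and Duxbl3, and that of 546 bases was identical in Cphx1, Cphx2 and Cphx3. Of the 31-base words in the annotated transcripts, 95.9% of those of Duxbl1, 100% of those of Duxbl2 and 93.4% of those of Duxbl3 occurred in another of these genes, so that Duxbl2 had 0 words of its own, Duxbl1 198 and Duxbl3 339. For Cphx1 the share was 80.4%, with 421 words of its own, and for Cphx2 88.8%, with 225. Crxos shared 0 of its 2979 words with the others. A read that holds only shared words cannot be assigned to 1 copy by sequence, so values of single Duxbl and Cphx copies are uncertain. Dux was left out of this comparison because its symbol is not in the annotation. Whether reads of Dux are shared with other sequences was not examined.

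The RefSeq promoters of Cphx1 and Cphx2 (GRCm38.p6) are shown because the results below differ between these genes while their coding sequences do not. The RefSeq starts used here lie inside the GENCODE spans given above. Each window runs from 250 bases before to 50 bases after the annotated start, on the plus strand of chromosome 14, at chr14:25942294-25942593 and chr14:26082043-26082342. Capitals mark the 50 bases from the start on.
Cphx1: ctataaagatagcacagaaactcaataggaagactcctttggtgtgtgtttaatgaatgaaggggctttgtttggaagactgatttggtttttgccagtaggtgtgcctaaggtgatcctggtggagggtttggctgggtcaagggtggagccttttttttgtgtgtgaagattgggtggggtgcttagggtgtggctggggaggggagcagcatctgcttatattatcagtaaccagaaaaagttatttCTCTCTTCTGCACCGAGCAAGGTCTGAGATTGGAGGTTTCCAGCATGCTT
Cphx2: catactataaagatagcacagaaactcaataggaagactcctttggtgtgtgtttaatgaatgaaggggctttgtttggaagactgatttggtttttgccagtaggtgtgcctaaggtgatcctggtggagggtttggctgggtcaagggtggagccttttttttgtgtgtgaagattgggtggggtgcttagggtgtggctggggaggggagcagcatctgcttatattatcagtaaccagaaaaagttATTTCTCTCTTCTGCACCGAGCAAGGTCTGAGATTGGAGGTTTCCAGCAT
The Cphx2 window is offset by 4 bases, and over the 296 bases that both hold there were 0 differences. The window of Cphx3 was identical to that of Cphx2 over all 300 bases. Of the 6 windows listed for the members (3 of them for Crxos), 0 held the paired-like homeodomain motif TAATCC and 0 the Nr5a2 motif AAGGTCA, on either strand. Over all 32851 windows the shares with these motifs were 7.06%, 4.72% and 0.0335%. At such low shares, 0 among 6 windows carries little weight.

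The values are the authors' own comparisons of consecutive stages, fitted within each strain. The tables hold no values per sample and no depth per library, so neither can be shown. Over all genes, the means added up to 20428114 normalized counts in B6CASTF1 and 19348115 in C57BL/6J. Genes with an adjusted p under 0.05 in these tables are called changed. Levels per stage are approximate means of the normalized count, worked out from a strain's mean and its fold changes, and are not comparable in size between the strains, which were normalized apart. In such pooled samples, fewer cells of a type and less RNA per cell cannot be told apart. All 10 egg markers had reads, with summed levels between 183989 and 575948 in B6CASTF1 and between 307155 and 721284 in C57BL/6J, and all 6 markers of the 2-cell embryo had reads. Among 10 cumulus and granulosa markers, Amh and Foxl2 were at 0 in B6CASTF1 and Amh, Cyp11a1 and Inhba in C57BL/6J. The summed level was 1176 to 2251 in B6CASTF1 and 294 to 1609 in C57BL/6J. From G2 zygotes to 2-cell embryos, Cyp19a1 went from 1338 to 24.5 in B6CASTF1 and from 810 to 4.05 in C57BL/6J. Amhr2 went the other way between these stages, from 0.594 to 891 in B6CASTF1 and from 0.193 to 286 in C57BL/6J. Of 10 testis markers 4 were at 0 in B6CASTF1 and 1 in C57BL/6J, with summed levels of 27.0 to 249 and 88.7 to 217. Of 4 blood markers, Hbb-bs was at 0 in both strains, while Hba-a1 stood at 2858 in 2-cell embryos and 5.25 in G2 zygotes of B6CASTF1, and at 3827 and 81.1 in C57BL/6J. The part of such RNA in the results below was not tested.

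**Figure D1:**
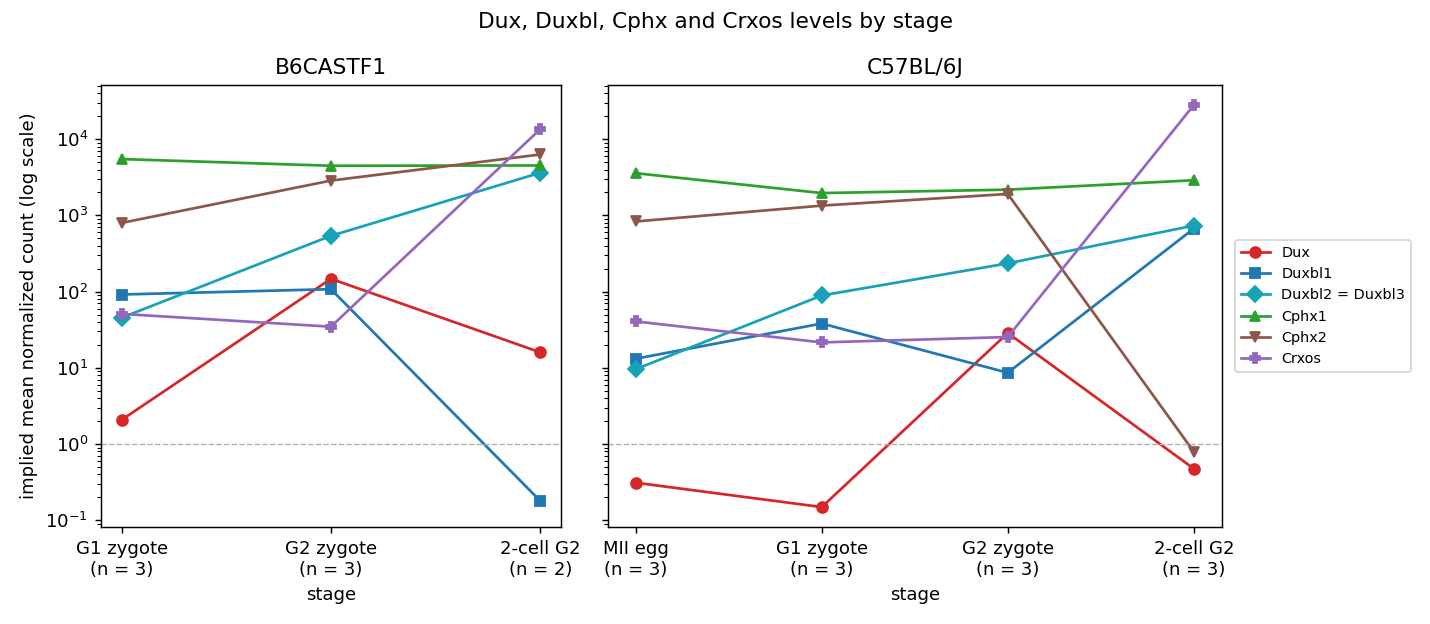
Implied mean normalized count (vertical axis, log scale) of each gene at each stage (horizontal axis), with B6CASTF1 on the left and C57BL/6J on the right; points are approximate stage means without error bars, n is the number of samples, and the dashed line marks a level of 1. Dux peaked in G2 zygotes, at 147 in B6CASTF1 and 28.6 in C57BL/6J, Crxos stood at 13529 and 28085 in 2-cell embryos of B6CASTF1 and C57BL/6J, and Duxbl1 in B6CASTF1 and Cphx2 in C57BL/6J ended below 1.

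Dux was highest in G2 zygotes of both strains. In B6CASTF1 its implied level was 2.08 in G1 zygotes, 147 in G2 zygotes and 16.0 in 2-cell embryos. In C57BL/6J it was 0.311 in MII eggs, 0.149 in G1 zygotes, 28.6 in G2 zygotes and 0.475 in 2-cell embryos. Both series show a single high stage, and at every other stage of C57BL/6J the level was under 1. In the authors' deposited table of B6CASTF1, Dux was higher in G2 than in G1 zygotes (log2 fold change 6.15, SE 1.51, adjusted p = 6.16e-04). At the same step in C57BL/6J, Dux had 7.59 in the authors' deposited table on the log2 scale, with an SE of 4.09 (adjusted p = 0.306). The 95% interval ran between -0.44 and 15.6, and this value did not pass the test. A fold near a level of 0 rests on few reads, and the mean normalized count of Dux over all C57BL/6J samples was 7.38. The difference of the step between B6CASTF1 and C57BL/6J was -1.44 (SE 4.36, adjusted p = 0.998), with wide error.

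After the zygote, Dux did not pass the test in either strain. In the authors' deposited table of B6CASTF1, 2-cell embryos over G2 zygotes gave -3.20 on the log2 scale (SE 1.57, adjusted p = 0.066), with an unadjusted p of 0.041. With the fold changes recentred on the median of well-measured genes, this value was -3.42 and passed the threshold. In C57BL/6J it was -5.91 in the authors' deposited table (SE 4.09, adjusted p = 0.222), and at fertilization, G1 zygotes over MII eggs, -1.06 (SE 4.26, adjusted p = 0.9995).

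Genes listed as targets of Dux, known from the 2-cell embryo, were counted at both steps. In B6CASTF1, 8 of 36 tested targets rose in G2 over G1 zygotes and 0 fell, with a median log2 fold change of 0.67, against 0.00 over all 14668 genes tested, of which 9.63% rose. Arg2, an arginase (log2 fold change 2.19, SE 0.22, adjusted p = 7.66e-22), Gm6763 (3.88, SE 0.68, adjusted p = 2.71e-07) and Zscan4f, a gene of the Zscan4 cluster (2.57, SE 0.51, adjusted p = 8.23e-06), had the smallest p in the authors' deposited table. In C57BL/6J, 2 of 35 targets rose at this step, Gm6763 and Trim43b, and 0 fell, with a median of 0.96 against 0.12 over all 13264 genes, of which 5.01% rose. At the 2-cell step 32 of 36 targets rose and 2 fell in B6CASTF1 (median 5.83, against 0.55 over all genes tested), and 24 of 35 rose and 2 fell in C57BL/6J (median 4.21, against 0.17), where 33.1% and 25% of all genes rose. The tripartite-motif gene Trim43b was the target with the smallest p in both, at levels of 94593 in 2-cell embryos and 120 in G2 zygotes of B6CASTF1, and of 14375 and 270 in C57BL/6J. The list was made of genes already known from the 2-cell embryo, so its rise at that step does not test a response to Dux. Whether more targets changed at one step than at the other was not tested, and the steps share the G2 zygotes. Many of the targets have near-identical copies of their own.

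Of 6 genes listed as activators of Dux, Dppa4 rose in G2 over G1 zygotes in both strains in the authors' deposited tables, with log2 fold changes of 2.39 (SE 0.34, adjusted p = 4.93e-11) in B6CASTF1 and 3.45 (SE 0.81, adjusted p = 7.71e-04) in C57BL/6J. Dppa2, its partner in binding DNA, also rose in B6CASTF1, and Nelfa, a subunit of the NELF complex that pauses RNA polymerase II, fell. These were the 3 calls among the 6 in B6CASTF1, beside 1 in C57BL/6J. Of 17 repressors tested in B6CASTF1, 2 rose and 4 fell at this step, and of 16 in C57BL/6J 0 rose and 1 fell. Over all genes 9.63% rose and 9.63% fell at this step in B6CASTF1, and 5.01% and 2.87% in C57BL/6J. The one that fell in C57BL/6J was Trim28, a corepressor of retrotransposons, by -1.50 on the log2 scale in the authors' deposited table (SE 0.51, adjusted p = 0.042). Trim28 also fell in B6CASTF1 (-2.36, SE 0.30, adjusted p = 1.42e-13 as listed in the authors' deposited table), at levels of 321 in G2 zygotes and 1650 in G1 zygotes. Sumo2 fell there as well (-1.93, SE 0.16, adjusted p = 2.42e-32), whereas Max rose (1.66, SE 0.26, adjusted p = 6.50e-09). In C57BL/6J neither Sumo2 (-1.04, SE 0.40, adjusted p = 0.093) nor Max (2.46, SE 1.19, adjusted p = 0.225) was called. At the 2-cell step Dppa2, Dppa4 and Obox3 rose in both strains, 3 of 6 activators with 0 falling, while 8 of 17 repressors rose and 6 fell in B6CASTF1 and 6 of 16 rose and 3 fell in C57BL/6J. All genes tested gave 33.1% up and 26.8% down in B6CASTF1, and 25% up and 25.3% down in C57BL/6J.

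Duxbl2 and Duxbl3 had identical values in all 5 tables, so the 7 rows hold 6 distinct sets of values and the pair gives 1 fold change per step. Whether 1 count was listed for both genes or reads were split equally between them cannot be told apart here. The implied level of each was 45.5 in G1 zygotes, 540 in G2 zygotes and 3625 in 2-cell embryos of B6CASTF1. C57BL/6J had 9.59 in MII eggs, 89.0 in G1 zygotes, 235 in G2 zygotes and 735 in 2-cell embryos. Each later stage was higher than the one before in both strains. Already at fertilization, G1 zygotes of C57BL/6J were above MII eggs by 3.21 on the log2 scale in the authors' deposited table (SE 0.70, adjusted p = 4.24e-04). That step called 2.75% of 13551 genes, 1.62% higher and 1.12% lower, and Duxbl2 and Duxbl3 were the 2 of 7 member rows called, both up. With every SE raised 1.5 times, neither was called at this step.

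Within the zygote, Duxbl2 and Duxbl3 rose in B6CASTF1 (log2 fold change 3.57, SE 0.44, adjusted p = 3.33e-14 as listed in the authors' deposited table). In C57BL/6J the value in the authors' deposited table was 1.40 (SE 0.66, adjusted p = 0.205), although the unadjusted p was 0.033. The step was larger in B6CASTF1 than in C57BL/6J by 2.17 (SE 0.79), but this difference did not pass adjustment over 12517 genes (unadjusted p = 0.00596, adjusted p = 0.169). At the 2-cell step the pair rose in both strains, by 2.75 in B6CASTF1 (SE 0.47, adjusted p = 1.67e-08) and by 1.65 in C57BL/6J (SE 0.65, adjusted p = 0.025), in the authors' deposited tables. The C57BL/6J call was lost when the fold changes were recentred (1.42) and when the SE was raised 1.5 times.

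The values listed for Duxbl1 took another course than those of Duxbl2 and went opposite ways in the strains at the 2-cell step. Only 198 of the 4782 31-base words of Duxbl1 are its own, and the part of read assignment between copies was not tested. The implied level of Duxbl1 was 91.6 in G1 zygotes, 108 in G2 zygotes and 0.180 in 2-cell embryos of B6CASTF1. C57BL/6J had 13.2 in MII eggs, 38.1 in G1 zygotes, 8.62 in G2 zygotes and 671 in 2-cell embryos. The 2-cell embryos were thus the lowest stage in B6CASTF1 and the highest in C57BL/6J. In the authors' deposited table of B6CASTF1, Duxbl1 fell at the 2-cell step (log2 fold change -9.23, SE 1.81, adjusted p = 1.09e-06), a fold whose size rests on a level near 0. In that of C57BL/6J it rose (6.28, SE 1.77, adjusted p = 0.0012), a call lost with the SE raised 1.5 times. The shrunken value of the B6CASTF1 step in the authors' deposited table was -7.36. The difference between B6CASTF1 and C57BL/6J was -15.5 on the log2 scale (SE 2.53, adjusted p = 7.53e-08). Of 5047 genes called at this step in both strains, 124 were called in opposite directions (2.46%), and Duxbl1 was the only member among them. Within the zygote it was not called in B6CASTF1 (0.23, SE 0.98, adjusted p = 0.944) or C57BL/6J (-2.14, SE 1.77, adjusted p = 0.593), nor at fertilization (1.54, SE 1.76, adjusted p = 0.9995), in the authors' deposited tables.

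**Figure D2:**
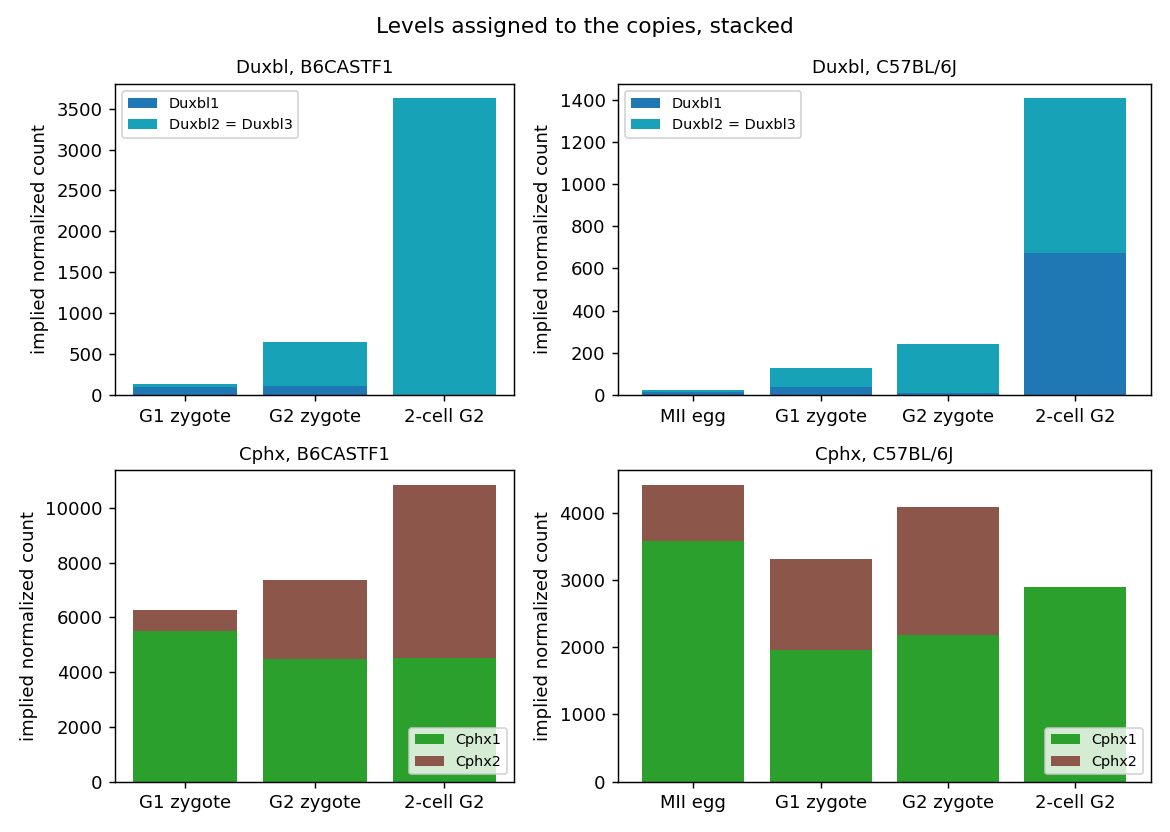
Implied normalized count (vertical axis, linear) assigned to each copy, stacked, at each stage (horizontal axis) for Duxbl (top) and Cphx (bottom), with B6CASTF1 on the left and C57BL/6J on the right; Duxbl2 and Duxbl3 are drawn as 1 part because their values are identical, and bars carry no error. In 2-cell embryos Duxbl1 made up 0.00495% of the stack in B6CASTF1 and 47.7% in C57BL/6J (0.00248% and 31.4% with Duxbl2 and Duxbl3 both counted), while Cphx2 made up 58.2% of its stack in B6CASTF1 and 0.0274% in C57BL/6J.

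Summed over the copies, a description chosen after the values of the single copies were seen, the Duxbl level was higher at each later stage in both strains. The sum takes the value listed for Duxbl2 and Duxbl3 once. The sum of Duxbl1 and Duxbl2 was 137 in G1 zygotes, 647 in G2 zygotes and 3625 in 2-cell embryos of B6CASTF1. C57BL/6J had 22.7 in MII eggs, 127 in G1 zygotes, 243 in G2 zygotes and 1406 in 2-cell embryos. On the log2 scale the sum changed by 2.24 and then 2.49 in B6CASTF1, and by 2.48, 0.94 and 2.53 in C57BL/6J, with no test because the sum has no SE. With Duxbl2 and Duxbl3 both counted, the 2-cell step was 2.61 in B6CASTF1 and 2.16 in C57BL/6J. Under either count the sum went up in both strains at this step, while the fold changes of Duxbl1 alone had opposite signs. In 2-cell embryos Duxbl2 alone, at 3625 in B6CASTF1 and 735 in C57BL/6J, already exceeded the G2 zygote sums of 647 and 243. The rise of the sum therefore follows from Duxbl2 and carries no further information on Duxbl1. The share of Duxbl1 in the sum was 66.8%, 16.6% and 0.00495% along the B6CASTF1 stages and 57.8%, 30.0%, 3.54% and 47.7% along those of C57BL/6J. With both counted these shares were 50.2%, 9.07% and 0.00248% in B6CASTF1, and 40.7%, 17.7%, 1.80% and 31.4% in C57BL/6J.

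Cphx1 was abundant from the egg on and was not called at any step. Its implied level was 5486 in G1 zygotes, 4483 in G2 zygotes and 4524 in 2-cell embryos of B6CASTF1. C57BL/6J had 3581 in MII eggs, 1965 in G1 zygotes, 2177 in G2 zygotes and 2894 in 2-cell embryos. In the authors' deposited tables its log2 fold changes lay between -0.87 (G1 zygotes over MII eggs, SE 0.57, adjusted p = 0.867) and 0.41 (2-cell embryos over G2 zygotes of C57BL/6J, SE 0.57, adjusted p = 0.575). The 95% interval of the 2-cell step was -0.92 to 0.95 in B6CASTF1 and -0.71 to 1.53 in C57BL/6J. Changes inside these bounds were not excluded. The strain differences were -0.40 (B6CASTF1 minus C57BL/6J, SE 0.74, adjusted p = 0.805) at the 2-cell step and -0.44 (SE 0.71, adjusted p = 0.998) within the zygote.

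Cphx2, whose coding sequence is that of Cphx1, stood near 0 in 2-cell embryos of C57BL/6J. Its implied level was 797 in G1 zygotes, 2865 in G2 zygotes and 6302 in 2-cell embryos of B6CASTF1, against 833 in MII eggs, 1344 in G1 zygotes, 1912 in G2 zygotes and 0.793 in 2-cell embryos of C57BL/6J. At the 2-cell step it was called lower in C57BL/6J (log2 fold change -11.2, SE 2.51, adjusted p = 3.68e-05) as listed in the authors' deposited table, again with a size that rests on a level near 0. The shrunken value in the authors' deposited table was -7.09. In B6CASTF1 the value in the authors' deposited table was 1.14 (SE 1.66, adjusted p = 0.567). The difference, B6CASTF1 minus C57BL/6J, was 12.4 (SE 3.01, adjusted p = 6.85e-04), and with the SE raised 1.5 times it did not pass. The sum of Cphx1 and Cphx2 was 6283, 7348 and 10826 along the B6CASTF1 stages and 4413, 3310, 4089 and 2895 along those of C57BL/6J, a change at the 2-cell step of 0.56 and -0.50 on the log2 scale, untested. Cphx3 is not in this sum. It has the same coding sequence, and 1788 of the 2013 31-base words of Cphx2 occur in it.

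The SEs of Cphx2 and Crxos were large beside those of genes with a similar mean count over all stages of the strain. A low level in 1 stage also raises an SE and was not matched for, so these ratios do not measure the spread between samples alone. The SE of Cphx2 was 7.30 times the median SE of genes with a mean count within 2-fold of its own in G2 over G1 zygotes of B6CASTF1, and 3.63 times in C57BL/6J. At the 2-cell step 99.95% of such genes in B6CASTF1 and 99.8% in C57BL/6J had a smaller SE than Cphx2. Implied levels of Cphx2 were 797, 2865 and 6302 along the B6CASTF1 stages, and 833, 1344, 1912 and 0.793 along those of C57BL/6J. For Crxos the SE was 3.31 times the median SE in B6CASTF1 and 3.61 times in C57BL/6J at the 2-cell step. Its levels in G2 zygotes were 34.6 and 25.3. For Duxbl2 the ratio was 1.51 in B6CASTF1 and 0.549 in C57BL/6J, and for Cphx1 2.36 and 1.23.

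**Figure D3:**
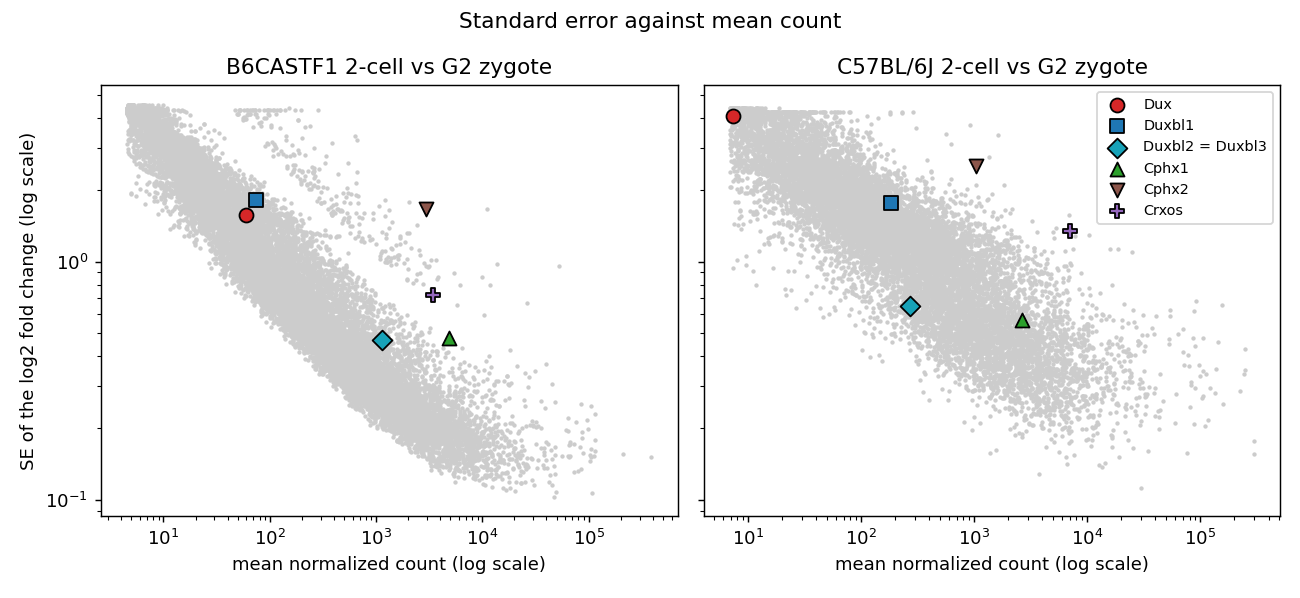
SE of the log2 fold change at the 2-cell step (vertical axis, log scale) against the mean normalized count over all samples of the strain (horizontal axis, log scale) for all genes tested (grey) and the members (coloured), with B6CASTF1 on the left and C57BL/6J on the right. Cphx2 and Crxos sit above most genes of similar count in both strains, with SE of 1.66 and 0.72 in B6CASTF1 and 2.51 and 1.34 in C57BL/6J.

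Of the 3 protein-coding neighbours within the same stretch of chromosome 14 that had a row, looked at after the values of the members were seen, 1 was called lower and 2 higher in 2-cell embryos than in G2 zygotes of both strains. Tmem254c (26063919 to 26067355, minus strand) was the one called lower, with log2 fold changes of -9.88 (SE 2.16, adjusted p = 1.37e-05) in B6CASTF1 and -21.3 (SE 4.25, adjusted p = 3.00e-06) in C57BL/6J in the authors' deposited tables. Its copy Tmem254b (26203369 to 26207041) was called higher in both, by 1.30 (SE 0.53, adjusted p = 0.026) in B6CASTF1 and 2.56 (SE 1.05, adjusted p = 0.032) in C57BL/6J in the authors' deposited tables. The sizes for Tmem254c rest on implied levels under 1 in 2-cell embryos, so they are not read as folds. Plac9b (26167405 to 26182480, minus strand) was called higher, with 10.4 in B6CASTF1 (SE 1.25, adjusted p = 5.29e-16) and 12.0 in C57BL/6J (SE 1.36, adjusted p = 4.28e-17), as the authors' deposited tables list it, from levels under 1 in G2 zygotes.

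Crxos was low until the G2 zygote and reached high levels in 2-cell embryos of both strains. Its implied level was 51.0 in G1 zygotes, 34.6 in G2 zygotes and 13529 in 2-cell embryos of B6CASTF1. In C57BL/6J it was 40.6 in MII eggs, 21.6 in G1 zygotes, 25.3 in G2 zygotes and 28085 in 2-cell embryos. In the authors' deposited tables it rose at the 2-cell step by 8.61 in B6CASTF1 (SE 0.72, adjusted p = 1.72e-31) and by 10.1 in C57BL/6J (SE 1.34, adjusted p = 6.48e-13). These steps differed by -1.50 (B6CASTF1 minus C57BL/6J, SE 1.52, adjusted p = 0.580), about the size of the SE of the difference. Before it, the log2 fold changes in the authors' deposited tables were -0.56 in G2 over G1 zygotes of B6CASTF1 (SE 0.66, adjusted p = 0.661), 0.23 in C57BL/6J (SE 1.35, adjusted p = 0.982) and -0.91 in G1 zygotes over MII eggs (SE 1.35, adjusted p = 0.9995). Crx, the photoreceptor homeobox gene beside it, followed another course, with 289, 1201 and 428 along the B6CASTF1 stages and 211, 351, 1022 and 744 along those of C57BL/6J.

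Counted per kilobase of the longest coding transcript, the order in 2-cell embryos of B6CASTF1 was Crxos (6024), Cphx2 (3685), Cphx1 (2744), Duxbl2 (1568) and Duxbl1 (0.0792). In C57BL/6J it was Crxos (12505), Cphx1 (1755), Duxbl2 (318), Duxbl1 (296) and Cphx2 (0.464). Crxos led at this stage in both strains. In G2 zygotes the level per kilobase was led by Cphx1 (2719 in B6CASTF1 and 1320 in C57BL/6J) and Cphx2 (1675 and 1118), and Duxbl2 stood at 233 and 102 ahead of Duxbl1 at 47.5 and 3.81 and of Crxos at 15.4 and 11.3. These levels have no spread over samples, so neighbours in the order could not be tested against each other. Dux has no annotated length under that symbol here and is left out of this order.

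By step, 3 of 7 member rows rose and 0 fell in G2 over G1 zygotes of B6CASTF1. There 19.3% of 14668 genes were called (9.63% higher and 9.63% lower). By the authors' DESeq2 test 0 of 7 were called in C57BL/6J, where 7.88% of 13264 were (5.01% higher and 2.87% lower). The rows of Duxbl2 and Duxbl3 hold 1 set of values, so in each count of rows they are 1 result, and the 7 rows hold 6 distinct sets. In C57BL/6J 2 of the 7 had an unadjusted p under 0.05, Duxbl2 and Duxbl3. In 2-cell embryos over G2 zygotes, 3 rose and 1 fell in B6CASTF1, where 59.9% of 16128 genes were called (33.1% higher and 26.8% lower), and 4 rose and 1 fell in C57BL/6J, where 50.4% of 12839 were (25% higher and 25.3% lower). All 7 rows had an adjusted p in all 5 tables. Of the 7, 2 differed between the strains at the 2-cell step, Duxbl1 and Cphx2. Of 12573 genes 16.6% did, 11.6% with the larger value in B6CASTF1 and 5.03% with the smaller. Within the zygote 0 of the 7 did by the normal test on the difference (1.92% of 12517 genes, 1.04% larger and 0.879% smaller in B6CASTF1). There the rows of Duxbl2 and Duxbl3, with their 1 set of values, had an unadjusted p under 0.05. Consecutive steps share a stage, so an error in the G2 zygotes enters both with opposite sign.

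**Figure D4:**
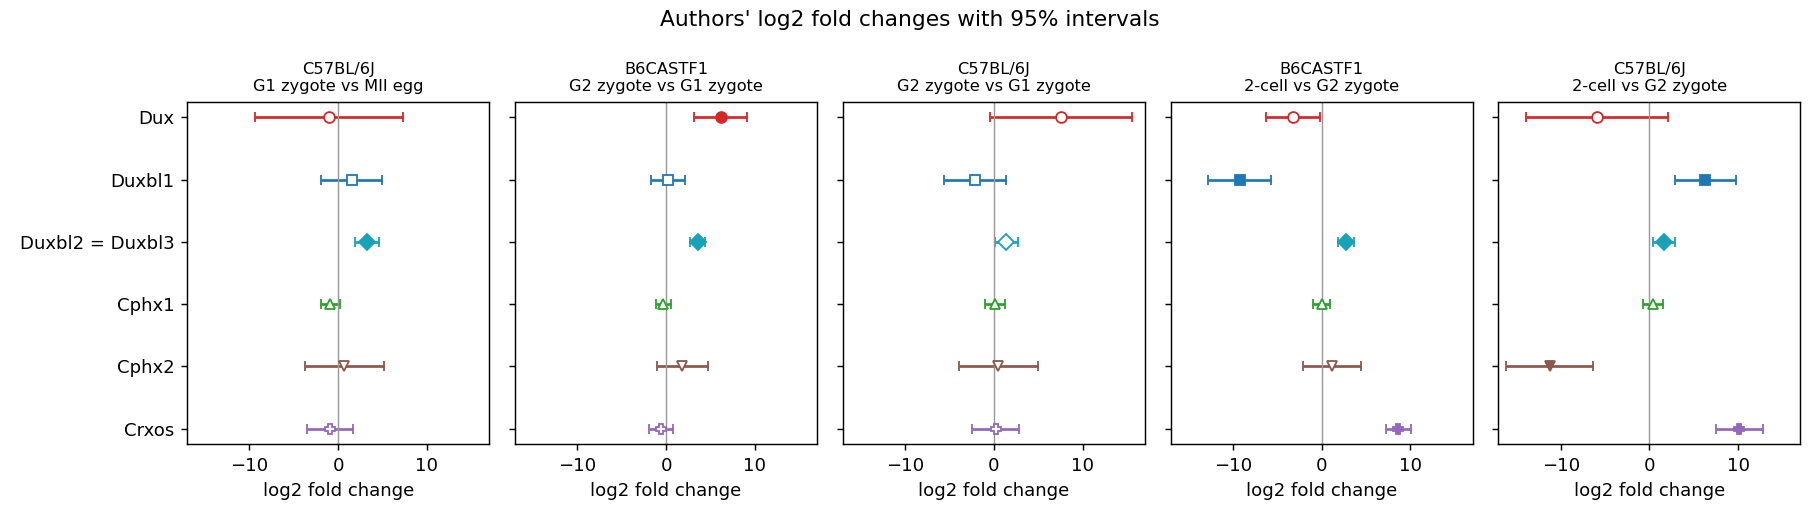
Authors' log2 fold change of later over earlier stage (horizontal axis) for each gene (rows), 1 panel for each comparison; bars are 95% intervals from the authors' SE and filled symbols passed an adjusted p of 0.05. Crxos lies far to the right at the 2-cell step of both strains, Duxbl1 lies left in B6CASTF1 (-9.23) and right in C57BL/6J (6.28), and Cphx1 lies between -0.87 and 0.41 in the panels.

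**Figure D5:**
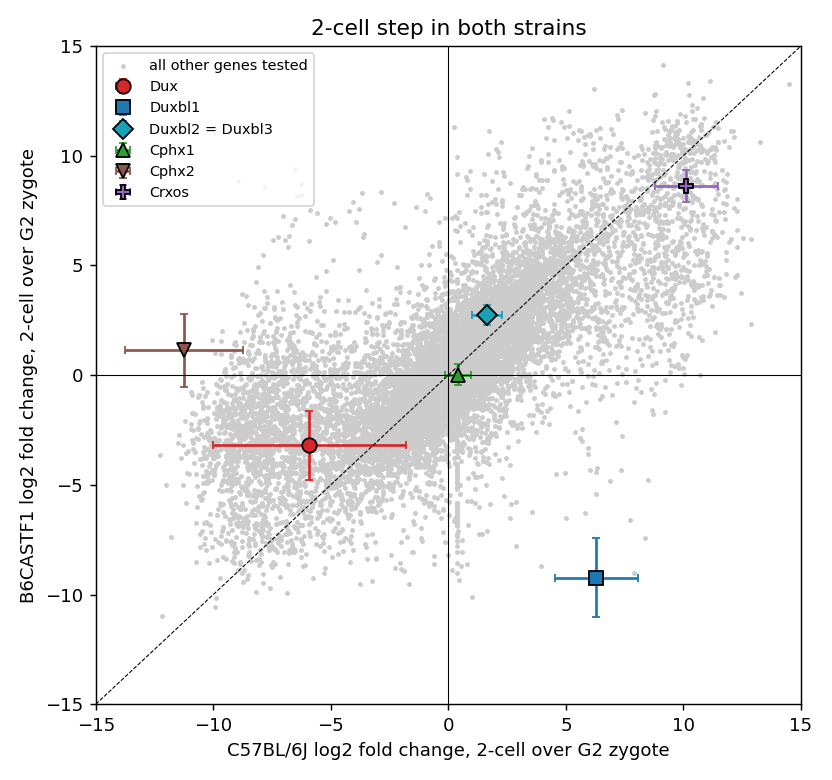
Log2 fold change of 2-cell embryos over G2 zygotes in B6CASTF1 (vertical axis) against C57BL/6J (horizontal axis) for the 12573 genes tested in both (grey; 113 lie outside the plotted range) and the members (coloured, with bars of 1 SE). Crxos, Duxbl2 and Cphx1 lie near the dashed line of equal change, and Duxbl1 and Cphx2 lie far from it.

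The genes whose 5 log2 fold changes were most like those of a member, by root mean square difference over the 5 steps among 12029 genes, were as follows. For Crxos they were Gm128 (0.201), Gip (0.274) and Gm4984 (0.417), all 3 with implied levels under 1 in G2 zygotes. Gm128 stood at 98.5 in 2-cell embryos of B6CASTF1 and 387 in those of C57BL/6J. For Cphx1 they were Mrpl32 (0.150), Pam16 (0.172) and Cdca7 (0.186), with log2 fold changes from -1.09 to 0.39, both those of Mrpl32. For Duxbl2 and Duxbl3 they were Ndufb7 (0.650), Cbr1 (0.702) and BC061212 (0.737), the last of which is also on the list of Dux targets. For Dux they were the vomeronasal receptor genes Vmn1r112 and Vmn1r157 (1.84 each, with identical values) and Vmn1r139 (1.85), at a distance well above that of the genes nearest to Cphx1 or Crxos. Vmn1r112 had levels of 208 in G2 zygotes and 9.96 in 2-cell embryos of B6CASTF1 in the implied counts, and of 532 and 30.3 in C57BL/6J. For Duxbl1 the nearest were Fkbp9 (1.28), Sult4a1 (1.94) and Pars2 (2.06), and for Cphx2 Hddc2 (0.996), Tgm4 (1.03) and Ada (1.08). Those 3 genes near Cphx2 stood at 0.246 in 2-cell embryos of C57BL/6J, and those near Duxbl1 at 0.180 to 0.491 in 2-cell embryos of B6CASTF1.

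Other homeobox genes of egg and early embryo changed in both directions at the 2-cell step, with medians below 0. Of 15 tested in B6CASTF1, 4 rose and 10 fell (median log2 fold change -2.07, against 0.55 over all genes tested), and of 14 in C57BL/6J 4 rose and 7 fell (median -3.40, against 0.17). Of all genes, 33.1% rose and 26.8% fell in B6CASTF1, and 25% rose and 25.3% fell in C57BL/6J. In the authors' deposited tables Obox6 rose by 10.3 in B6CASTF1 (SE 0.29, adjusted p = 1.23e-275) and by 10.9 in C57BL/6J (SE 0.66, adjusted p = 9.43e-58). Its implied level was 32932 in 2-cell embryos and 27.0 in G2 zygotes of B6CASTF1, and 26179 and 13.9 in C57BL/6J, beside 13529 and 34.6, and 28085 and 25.3, for Crxos. In G2 over G1 zygotes 3 rose and 2 fell of 15 in B6CASTF1, and 2 rose and 0 fell of 14 in C57BL/6J, where Crx and Nanog were the 2 that rose. The shares over all genes were 9.63% in each direction in B6CASTF1, and 5.01% up and 2.87% down in C57BL/6J. At fertilization 1 of 14, Obox6, fell and 0 rose, where 1.12% of all genes fell and 1.62% rose.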

How the data were processed

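RNA was measured in 20 samples of 7 groups, each a pool of eggs or embryos. The submitters' processing notes name Picard, TopHat, kallisto and bcl2fastq and mm10 as the build, without the role of each tool. The 5 tables were made by the authors with DESeq2 1.18.1, as the file names say. Each deposited table gives per gene the signal (a normalized count averaged over the strain), the log2 fold change and its shrunken form, the SE, the Wald ratio as a score, and a p-value before and after adjustment, per the file headers. The mean was checked to be the same in all tables of a strain.

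Stage levels were computed from these means and fold changes, weighted by samples per stage. For strain differences, the C57BL/6J value was subtracted from that of B6CASTF1 and divided by the SE of both together, giving a two-sided normal p adjusted by Benjamini-Hochberg over all genes tested in both strains. The test was tried on simulated data in which 100 genes were given a log2 difference of 4 and 100 a difference of 8. For the 2-cell step, in a run over 12573 genes, 36% and 71% of these were called, beside 0.0323% of unchanged genes. Within the zygote, over 12517 genes, 40% and 81% were called, beside 0.0812%. The simulated noise was normal with the authors' SE, the same SE that the test uses. These rates therefore do not check the SE themselves, levels near 0 or reads shared between copies. The genes, lists and alternatives were chosen with earlier results of these data known. The rule for naming genes took all members, the 3 genes most like each (among genes whose mean reached 10 in each strain) and the 3 of each list with the smallest p, of which a selection is given. Positions, lengths and transcripts came from GENCODE M21 (GRCm38), where 23376 of 24411 symbols were found. Precision was read from the authors' SE, since depth per sample is unknown. Computations ran in scipy 1.17.1, pandas 2.3.3, numpy 2.4.6 and Biopython 1.88 under Python 3.11.15, and plots in matplotlib 3.10.9.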

Additional observations from a re-analysis of the deposited data

Results flagged for a closer look

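The 2-cell step of Duxbl1 differed between the strains, by -15.5 on the log2 scale (B6CASTF1 minus C57BL/6J, SE 2.53, adjusted p = 7.53e-08), with a fall in B6CASTF1 and a rise in C57BL/6J. The 2-cell step of Cphx2 differed by 12.4 (B6CASTF1 minus C57BL/6J, SE 3.01, adjusted p = 6.85e-04), with no call in B6CASTF1 and a fall in C57BL/6J. In both cases 1 strain stood at an implied level under 1 in 2-cell embryos, 0.180 for Duxbl1 in B6CASTF1 and 0.793 for Cphx2 in C57BL/6J, and the other copies of identical coding sequence were present there, with Duxbl2 at 3625 and Cphx1 at 2894. The part of read assignment between copies was not tested.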

How the results depend on the processing

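No paired analysis was possible because single samples have no values here, and leaving out single replicates could not be run for the same reason. At fertilization the 2 member calls, Duxbl2 and Duxbl3 with their 1 set of values, fell to 0 with Bonferroni adjustment and to 0 with the SE raised 1.5 times. At the 2-cell step of C57BL/6J, the 5 calls also hold this pair. They were 3 at an adjusted p under 0.01, 1 with Bonferroni adjustment, 2 with the SE raised 1.5 times and 3 after recentring. The 2 strain differences at the 2-cell step were 1 with Bonferroni adjustment and 1 with the SE raised 1.5 times, that of Duxbl1 in both. Among genes with a mean of 100 or more the 1 left was that of Cphx2, as Duxbl1 had a mean of 74.8 in B6CASTF1. Neither difference held under all of these settings. The calls of Dux in G2 over G1 zygotes of B6CASTF1 and of Duxbl1 at the 2-cell step of C57BL/6J were lost with the SE raised 1.5 times. Shrinkage moved Cphx2 at the 2-cell step of C57BL/6J to -7.09 and Duxbl1 at that of B6CASTF1 to -7.36. Recentring turned Cphx1 at the 2-cell step of B6CASTF1 to -0.20. The other counts of calls stayed within 1.5 times. The cause of these changes was not tested beyond the settings themselves. Implied levels of B6CASTF1 with 3 in place of 2 samples at the 2-cell stage were 0.752 to 1.12 times the values given. Counting both Duxbl2 and Duxbl3 in the Duxbl sum, an alternative chosen after seeing the data, gave log2 steps of 2.70 and 2.61 in B6CASTF1 and 2.74, 1.15 and 2.16 in C57BL/6J. Recentring moved the 2-cell fold changes by 0.21 in B6CASTF1 and 0.23 in C57BL/6J.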
